A study of Mus musculus with 9 samples.

Results

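Autophagy delivers a cell's own material to the lysosome, and 34 genes of its core machinery were followed in ST2 cells, a stromal line established from mouse bone marrow culture, after these cells had taken up human neutrophils. The genes were given as a list of symbols covering each step, from the kinase complex that starts the process to fusion with the lysosome, and each symbol was looked up among the 55453 lines of the deposited table of read counts. All 34 were found, and all 34 passed the filter on low counts that left 13568 genes for testing, with 125 to 20888 reads per library. Wild-type ST2 cells formed 3 groups of 3 libraries. The fed 24 h group had been kept with neutrophils for 24 h and the fed 3 h group for 3 h, and in both the cells sequenced were those that flow cytometry sorted as positive for the dye eFluor670 at a level of at least a whole neutrophil. The unfed group was cultured without neutrophils and collected at 24 h. The neutrophils came from human blood, had been frozen for at least 18 h, were stained with the dye at 20 µM and were given at 10 per ST2 cell. ST2 is a single cell line, there were no unfed libraries at 3 h, and the labels do not say that replicates were separate cultures, so a p-value reflects the spread among these libraries alone. Libraries are numbered below as the labels number the replicates.

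In autophagy the ULK kinase complex and a phosphatidylinositol 3-kinase complex built on beclin 1 mark a membrane, which grows by lipid transfer, is coated with small ATG8 proteins attached by ubiquitin-like conjugation, closes around its cargo and fuses with the lysosome. Cells that engulf other cells can also attach ATG8 proteins to the phagosome itself. This route, LC3-associated phagocytosis, is known to need rubicon (Rubcn), UVRAG and the conjugation enzymes among others, but not the ULK complex. The amount of an mRNA does not measure how much material autophagy turns over.

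Total counts ran from 49387906 to 55971275 in fed 24 h, from 46322396 to 51205019 in fed 3 h and from 44442664 to 48736073 in unfed libraries. Mitochondrially encoded genes took 1.78 to 2.22% of the counts in fed 24 h, 1.12 to 1.58% in fed 3 h and 1.48 to 1.61% in unfed libraries, and genes that collect ribosomal RNA reads took 0.201 to 0.35% in fed 24 h, 0.0927 to 0.249% in fed 3 h and 0.0904 to 0.115% in unfed libraries. The stromal identity given in the labels was checked with 12 markers, whose summed level was 40000 to 42400 CPM (counts per 1000000 counts of the scaled library total) in fed 24 h, 36900 to 38000 CPM in fed 3 h and 37600 to 39900 CPM in unfed libraries. Of these markers Thy1 had no counts in the fed 24 h and unfed libraries and 1 count in the fed 3 h libraries together. Eng and Nt5e were low, with group means of 2.41 to 2.62 CPM and 1.04 to 1.49 CPM. Large members of this sum moved in different ways. Cxcl12 had a mean of 7970 CPM in fed 24 h, 2270 CPM in fed 3 h and 5710 CPM in unfed libraries. Vim had 6930 CPM in fed 24 h, 10000 CPM in fed 3 h and 7660 CPM in unfed libraries. The 11 mouse neutrophil markers summed to 3.41 to 4.31 CPM in fed 24 h, 0.838 to 1.48 CPM in fed 3 h and 2.32 to 2.95 CPM in unfed libraries, with S100a9 at 0 in all 9 and Camp giving most of the sum. The 11 macrophage markers summed to 24.6 to 28.0 CPM in fed 24 h, 27.9 to 28.7 CPM in fed 3 h and 23.2 to 25.2 CPM in unfed libraries, mostly from Cd14, with Adgre1, C1qa, C1qb, C1qc, Marco and Fcgr1 at 0 in all, and the 5 endothelial markers to at most 0.189 CPM. How far RNA of the human neutrophils entered the counts of the mouse genes was not tested.

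The most abundant core mRNA was that of Gabarap, an ATG8 protein. By the length of the principal transcript, genes of the ATG8 and of the phosphoinositide-binding WIPI families held the 6 highest levels. Levels between genes are compared per length, as CPM per kilobase of the principal transcript of each gene. On that scale Gabarap had 270.0 ± 10.0 in fed 24 h, 216.7 ± 5.03 in fed 3 h and 265.0 ± 28.2 in unfed libraries (SD, n = 3 each). Wipi1, which binds the lipid made by the beclin 1 complex, followed with 49.6 ± 1.19 in fed 24 h, 39.8 ± 0.921 in fed 3 h and 43.8 ± 1.32 in unfed libraries. The ATG8 genes Map1lc3a, Map1lc3b and Gabarapl1 had means over all 9 libraries of 41.8, 38.6 and 31.2, and Wipi2 had 31.0. On this scale these 5 genes lay close together, and Gabarap lay far above them. The median of the 34 members was 9.62. The lowest were Atg14, the subunit that directs the beclin 1 complex to autophagy (1.94), Atg10, the enzyme that joins ATG12 to ATG5 (2.43), and the processing protease Atg4d (2.88). In the order of levels in unfed cells, the libraries overlapped in 20 of the 33 pairs of neighbours, so that the order within those pairs was not resolved. The length matters for this order and was chosen after the values had been seen. With the length of all annotated exons in place of the principal transcript, Map1lc3b had 13.0 and Wipi2 had 5.76, against 183.6 for Gabarap. Map1lc3b and Wipi2 then ranked 10 and 19, and Atg5 (25.2) and Atg101 (19.7) ranked 4 and 6.

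**Figure D1:**
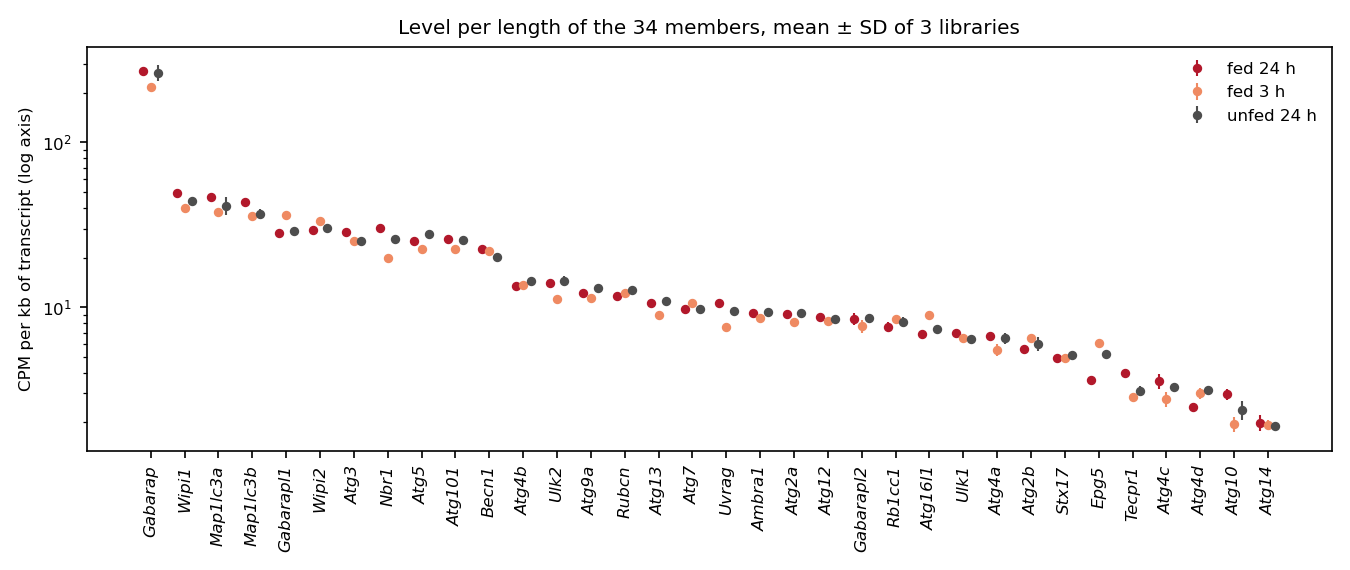
Level per length of the 34 core genes (CPM per kilobase of the principal transcript, log axis), mean ± SD of 3 libraries in fed 24 h, fed 3 h and unfed 24 h cells, in order of the mean over all libraries. Gabarap lies far above the others at 216.7 to 270.0, and Atg14 is lowest at 1.94 over all libraries.

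After 24 h of feeding, a minority of the core genes differed from unfed cells of the same time, and by small amounts. Higher in fed cells were mRNAs for the fusion factor Tecpr1, the ATG8 protein Map1lc3b, the cargo receptor Nbr1, Wipi1, the beclin 1 complex subunits Becn1 and Uvrag and the conjugating enzyme Atg3. Lower were the tethering factor Epg5, which had the largest change of the 34, the protease Atg4d and Atg5. By the quasi-likelihood test of edgeR, with Benjamini-Hochberg adjustment over 13568 genes and a gene called at an adjusted p under 0.05, 7 of 34 were called higher and 3 lower. Over all tested genes 30.8% were called, 14.9% higher and 15.9% lower, against 29.4% of the members, 20.6% higher and 8.82% lower, so that the members were called about as often as other genes. Their median log2 fold change was −0.0056 and that of all genes −0.0013, and the median size of the change was 0.0976 against 0.144. The 3 fed libraries lay above the 3 unfed ones in 9 members and below them in 4, where 21.3% and 22.0% of all genes did so (43.2% together). Fed cells were only the sorted fraction, so feeding and selection differed together and cannot be told apart, nor can fewer cells of a kind and less RNA per cell in bulk RNA. The mitochondrial and ribosomal RNA shares and the summed stromal and neutrophil markers given above were also higher in every fed 24 h library than in any unfed one, and their part in these differences was not tested.

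None of the 5 genes of the ULK complex was called at 24 h, with log2 fold changes from −0.10 to 0.11 and 1 of them at an unadjusted p under 0.05. The kinase Ulk1 had 37.9, 35.6 and 35.0 CPM in fed 24 h cells, against 33.1, 33.9 and 33.4 CPM in unfed cells. All 3 fed libraries were above the unfed ones, but the gene was called only with a stricter filter on low counts (log2 0.13, edgeR adjusted p = 0.041, against 0.0876 otherwise and up to 0.273 over the alternatives). None of the genes that supply membrane lipid was called either, namely the lipid transfer proteins Atg2a and Atg2b and the scramblase Atg9a (−0.02, −0.10 and −0.09), although Atg2b was called without unfed library 1 (−0.17). DESeq2 and limma-voom called no member of these groups either.

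In the beclin 1 complex 2 of 5 genes were higher. Becn1 (chromosome 11, 101285952 to 101302286, GRCm38) encodes the scaffold of the complex and had 100.3, 96.5 and 96.7 CPM in fed 24 h cells, against 87.0, 91.0 and 85.0 CPM in unfed cells. The groups did not overlap, and the difference was small (log2 0.16, SE 0.0416, edgeR adjusted p = 0.00983). Uvrag (chromosome 7, 98885021 to 99141141), the subunit of the form of the complex that acts on endosomes and phagosomes, had 55.2, 51.3 and 57.4 CPM in fed 24 h cells, against 50.7, 48.4 and 46.8 CPM in unfed cells. The nearest libraries of the 2 groups almost touched (log2 0.17, SE 0.0503, edgeR adjusted p = 0.0194), and the call was lost without fed 24 h library 1 (0.17) or 3 (0.13) or unfed library 3 (0.14). Rubcn, which restrains this complex in autophagy and is needed for LC3-associated phagocytosis, had 60.4, 61.8 and 62.4 CPM in fed 24 h cells, against 64.3, 68.5 and 66.7 CPM in unfed cells. Every fed library was below the unfed ones, but the difference missed the threshold (−0.11, edgeR adjusted p = 0.0535) and passed it without unfed library 1 (−0.13). Atg14 and Ambra1, an adaptor of the complex, were not called (0.07 and −0.03). Exons of Becn1 overlap Cntd1 on the opposite strand, which had 27 counts in all libraries together, and exons of Uvrag overlap Gm45187 (38 counts) and hold a repeat found in other transcripts.

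Wipi1 (chromosome 11, 109573331 to 109611967) had 103, 98.8 and 103 CPM in fed 24 h cells, against 92.7, 87.3 and 89.3 CPM in unfed cells. Its groups were well apart (log2 0.18, SE 0.0418, edgeR adjusted p = 0.00466). Its relative Wipi2, which recruits the conjugation machinery through ATG16L1, was not called (−0.06, edgeR adjusted p = 0.373).

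Among the 6 genes of the conjugation system, 1 was higher and 1 lower. Atg3 (chromosome 16, 45158785 to 45188538), the E2-like enzyme that attaches ATG8 proteins to lipid, had 58.6, 55.9 and 60.9 CPM in fed 24 h cells, against 52.9, 51.9 and 51.6 CPM in unfed cells. Its fed libraries were the higher ones throughout (log2 0.17, SE 0.0494, edgeR adjusted p = 0.0191), and the call was lost without fed 24 h library 3 (0.14) or unfed library 3 (0.16). Atg5 (chromosome 10, 44268358 to 44364291), the protein that ATG12 is joined to, had 61.2, 59.9 and 57.8 CPM in fed 24 h cells, against 66.4, 63.2 and 65.5 CPM in unfed cells. Its levels in fed cells were all lower (log2 −0.13, SE 0.0434, edgeR adjusted p = 0.0387), but this call was lost under 9 of 16 alternatives (−0.14 to −0.10, edgeR adjusted p from 0.0504 to 0.143). These were the fits with no filter, with a stricter filter, with the replicate number and of the 6 libraries compared only, and those without any 1 of the 3 fed 24 h libraries or without unfed library 1 or 3. Atg7, the E1-like enzyme that acts before both, was level (−0.0014). Atg10 had 4.57, 4.43 and 5.09 CPM in fed 24 h cells, against 4.36, 3.60 and 3.38 CPM in unfed cells, which missed the threshold (0.31, edgeR adjusted p = 0.0696) and passed it without unfed library 1 (0.43). Atg12 and Atg16l1, whose proteins form a complex with ATG5, were not called (0.03 and −0.10).

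Atg3 and Atg5 act on the same reaction and were called in opposite directions at 24 h. Each call was lost under some alternatives, as given above. The stretch upstream of each gene holds the hexamer CACGTG. This hexamer, shown in capitals, is the core of the sequence bound by the transcription factors TFEB, TFE3 and MITF, which are known to switch on lysosomal and autophagy genes. The bases are from RefSeq on the plus strand of GRCm38.p6, at chr16:45158649-45158784 for Atg3 and chr10:44268159-44268338 for Atg5, and were shown because they hold it.
Atg3: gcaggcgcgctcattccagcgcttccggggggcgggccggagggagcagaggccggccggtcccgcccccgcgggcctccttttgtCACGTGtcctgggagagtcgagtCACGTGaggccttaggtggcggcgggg
Atg5: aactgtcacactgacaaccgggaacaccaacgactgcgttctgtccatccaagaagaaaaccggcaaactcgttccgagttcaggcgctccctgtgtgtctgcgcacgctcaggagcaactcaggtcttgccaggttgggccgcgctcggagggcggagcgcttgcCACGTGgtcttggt
Windows from 250 bases before to 50 bases after the start were at hand for 28 of the 34 members, and 8 motifs were searched in them on both strands. CACGTG was in the windows of 5 members (17.9%), against 8.09% of all genes with a window and 11.7% of those tested. The first bases of the matches lay 94 and 71 bases before the RefSeq start of the window in Atg3, 14 in Atg5, 132 in Atg7, 88 in Rubcn and 1 in Atg14. These starts are not those of the gene coordinates given here, which are from GENCODE M21. The RefSeq start lay 19 bases before the GENCODE start in Atg5 and 44 bases inside the gene in Atg3, so that the matches were 33 bases before the GENCODE start in Atg5 and 50 and 27 in Atg3. In Atg14, Rubcn and Atg7 the window lay farther inside the GENCODE gene, with its start 2215, 9400 and 27999 bases in. Of its extensions, GTCACGTG was in 3 members (10.7%, against 2.55% of all genes and 4.77% of those tested), TCACGTGA in 1 (3.57%, against 1.12% and 2.26%) and the full CLEAR element, in which AC follows GTCACGTG, in none (0.37% and 0.807%). All members are tested genes, and TGACGTCA was in 1 of them (3.57%, against 3.57% of tested and 2.03% of all genes) and CCGCCC in 20 (71.4%, against 69.0% of tested and 38.2% of all genes), close to the shares of tested genes. No member window held TGACTCA (4.62% of tested and 5.95% of all genes) or GTAAACA (3.04% and 4.05%). At 24 h these 5 members with CACGTG had log2 fold changes of 0.17 (Atg3), −0.13 (Atg5), −0.0014 (Atg7), −0.11 (Rubcn) and 0.07 (Atg14). Only Atg3 and Atg5 of them were called, and the part of the hexamer in these changes was not tested.

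Of the 4 ATG4 proteases, which trim ATG8 proteins and release them from lipid, Atg4d alone was called. Atg4d (chromosome 9, 21265293 to 21277772) had 14.9, 15.6 and 14.0 CPM in fed 24 h cells, against 18.2, 19.9 and 17.6 CPM in unfed cells. No fed library reached an unfed one (log2 −0.32, SE 0.0698, edgeR adjusted p = 0.00282). Its exons overlap Kri1 on the opposite strand over 19.3% of their length, so reads of these genes could be mixed if strand was not kept. Kri1 did not pass the threshold (0.10, edgeR adjusted p = 0.378). Atg4a, Atg4b and Atg4c were not called (0.05, −0.11 and 0.12), but Atg4b was without fed 24 h library 2 (−0.15).

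Of the 5 ATG8 genes, Map1lc3b was higher. Map1lc3b (chromosome 8, 121590361 to 121598760), the most widely used marker of autophagosomes, had 114, 111 and 104 CPM in fed 24 h cells, against 100.2, 88.0 and 91.7 CPM in unfed cells. Unfed library 1 was the nearest to the fed libraries, which were all above it (log2 0.24, SE 0.0509, edgeR adjusted p = 0.00289). Map1lc3a had 52.2, 53.8 and 48.6 CPM in fed 24 h cells, against 52.4, 43.6 and 41.6 CPM in unfed cells. Unfed library 1 lay among the fed libraries, and the gene was not called (0.17, edgeR adjusted p = 0.0797) unless that library was left out (0.28) or no filter was used (0.17). Gabarap had 372, 373 and 349 CPM in fed 24 h cells, against 401, 328 and 345 CPM in unfed cells. Again unfed library 1 was the highest, the groups overlapped, and neither Gabarap, Gabarapl1 nor Gabarapl2 was called (0.03, −0.03 and −0.01). Gabarapl2 has 3 near-identical processed pseudogenes, which had 4, 1 and 1 counts in all libraries together.

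Nbr1 (chromosome 11, 101552149 to 101581951), a receptor that links ubiquitinated cargo to ATG8 proteins, had 143, 146 and 148 CPM in fed 24 h cells, against 127, 123 and 122 CPM in unfed cells. Its groups were far apart for their spread (log2 0.23, SE 0.0394, edgeR adjusted p = 0.000596). Of the 3 fusion genes, Tecpr1 (chromosome 5, 144194442 to 144223615), which binds the ATG12-ATG5 conjugate at the lysosome, had 21.4, 19.4 and 20.7 CPM in fed 24 h cells, against 17.0, 15.4 and 15.1 CPM in unfed cells. Every fed library was above the unfed ones (log2 0.37, SE 0.0616, edgeR adjusted p = 0.000481), the largest rise of the 34. Epg5 (chromosome 18, 77938465 to 78035013), which tethers autophagosomes to late endosomes and lysosomes, had 33.2, 37.3 and 34.5 CPM in fed 24 h cells, against 49.4, 50.3 and 50.2 CPM in unfed cells. The highest fed library was well below the lowest unfed one (log2 −0.51, SE 0.0518, edgeR adjusted p = 1.02e-05), a fall of 29.9%. Stx17, the SNARE protein of the autophagosome, was not called (−0.05).

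**Figure D2:**
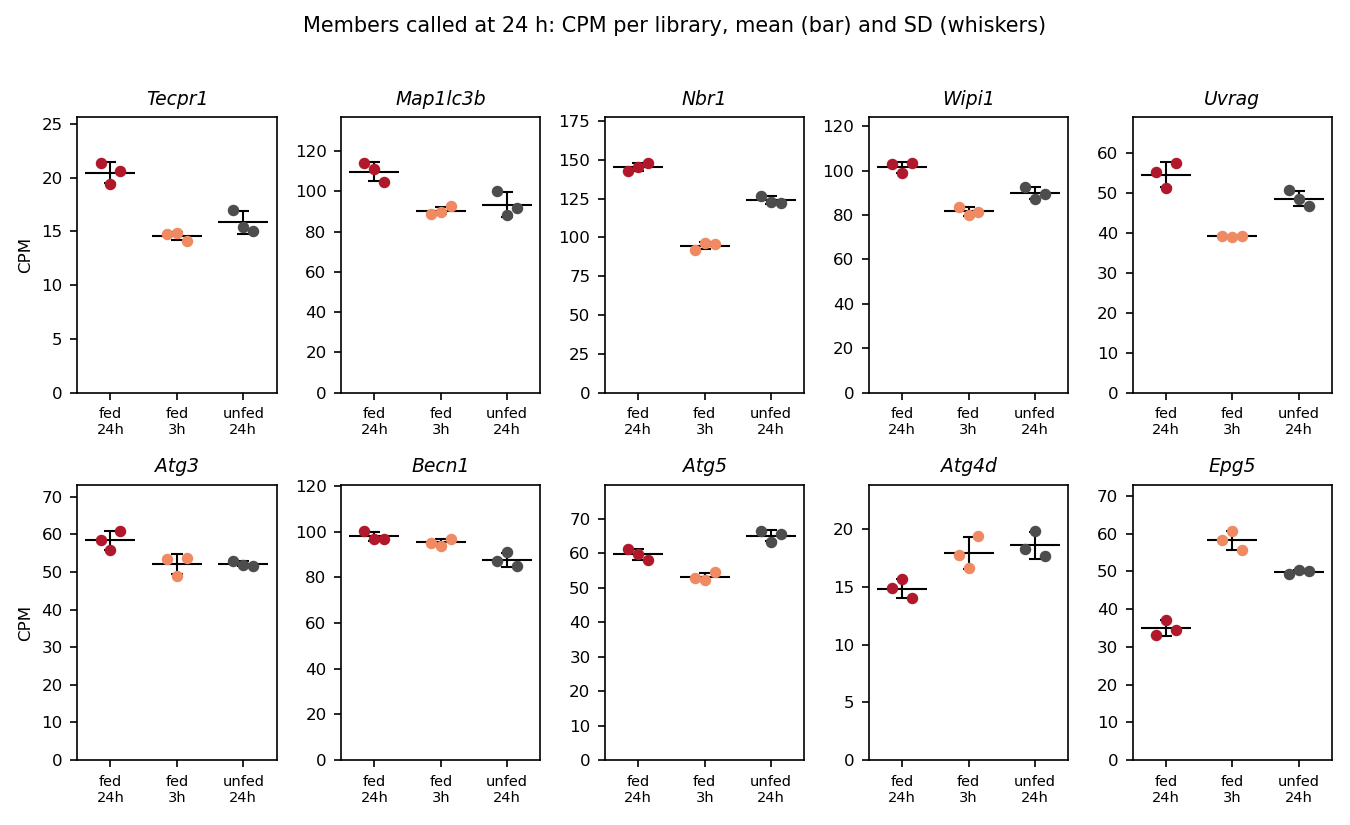
CPM in each library (points) of the 10 core genes called between fed 24 h and unfed 24 h cells, with fed 3 h cells between them, the mean (bar) and the SD (whiskers). Epg5 lies at 33.2 to 37.3 CPM in fed 24 h, 55.7 to 60.8 CPM in fed 3 h and 49.4 to 50.3 CPM in unfed cells.

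Set against unfed cells collected at 24 h, fed 3 h cells had more core genes that were lower than higher. Lower were members of the ULK complex (Ulk2, Atg13 and Atg101), the lipid supply genes Atg2a and Atg9a, Uvrag, Wipi1, Atg5, the proteases Atg4a and Atg4c, Gabarap and Nbr1. Higher were Gabarapl1, Atg16l1, Epg5, Wipi2 and Becn1. In all 12 of 34 were called lower and 5 higher, or 35.3% and 14.7%, against 25.5% and 25.1% of all tested genes, and 50% were called either way, against 50.6%. The members were thus called as often as other genes, with a larger share lower. The fed libraries lay above the unfed ones in 6 members and below them in 15, where 29.1% and 29.1% of all genes did so (58.2% together). The median log2 fold change of the members was −0.11, against −0.0085 over all genes. Leaving out unfed library 1 brought the median to −0.0716, and leaving out unfed library 3 to −0.128. The summed neutrophil markers were lower and the summed macrophage markers higher in every fed 3 h library than in any unfed one, and their part in these differences was not tested. Time in culture, feeding and selection of the sorted fraction differed together here and cannot be told apart.

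The ULK complex had 3 of 5 genes lower. Ulk2, the second kinase of the pathway, had 65.8, 65.4 and 60.9 CPM in fed 3 h cells, against 89.4, 77.9 and 81.1 CPM in unfed cells. The groups did not overlap, with unfed library 1 the farthest away (log2 −0.37, SE 0.0524, edgeR adjusted p = 2.75e-05). The adaptors Atg13 (−0.29, edgeR adjusted p = 0.00036) and Atg101 (−0.18, edgeR adjusted p = 0.0145) were lower too, whereas Ulk1 (0.02) and the scaffold Rb1cc1 (0.07) were not called. The call of Atg101 was lost without fed 3 h library 1 (−0.17) or 2 (−0.16) or unfed library 2 (−0.16). Atg2a and Atg9a were lower (−0.17 and −0.20), and Atg2b was called, as higher, only without unfed library 3 (0.18, against 0.12 with it). Exons of Atg9a overlap Gm29253 on the same strand over 31.8% of their length. Gm29253 had 0 counts in all libraries together, and how shared reads were counted is not known.

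In the beclin 1 complex the subunits went different ways. Uvrag had 39.3, 39.0 and 39.1 CPM in fed 3 h cells, against 50.7, 48.4 and 46.8 CPM in unfed cells. The fed libraries lay within a narrow band below the unfed ones (log2 −0.31, SE 0.0512, edgeR adjusted p = 0.000112). Becn1 had 95.2, 93.8 and 96.7 CPM in fed 3 h cells, against 87.0, 91.0 and 85.0 CPM in unfed cells. The groups were apart by a small margin, with fed cells higher (log2 0.12, SE 0.0417, edgeR adjusted p = 0.0265), and the call was lost with no filter (0.12) and without fed 3 h library 3 (0.11) or unfed library 3 (0.10). Ambra1 missed the threshold (−0.12, edgeR adjusted p = 0.0527) and passed it under 6 of 16 alternatives (edgeR adjusted p from 0.025 to 0.188 over all). They were the stricter filter, the fit of the 6 libraries compared, and the fits without fed 24 h library 1 or 3, fed 3 h library 1 or unfed library 3 (−0.16 to −0.12). Atg14 and Rubcn were not called (0.03 and −0.06).

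The WIPI pair also split. Wipi2 had 64.7, 64.0 and 67.9 CPM in fed 3 h cells, against 57.5, 60.5 and 60.3 CPM in unfed cells. All 3 fed libraries were above the unfed ones (log2 0.14, SE 0.0443, edgeR adjusted p = 0.0147), a call lost without fed 3 h library 3 (0.12) or unfed library 1 (0.12). Wipi1 was lower (−0.14, edgeR adjusted p = 0.0128), a call lost without fed 3 h library 2 (−0.12).

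In the conjugation system Atg5 and Atg16l1, whose proteins work in the same complex, were called in opposite directions. Atg5 had 52.6, 52.3 and 54.4 CPM in fed 3 h cells, against 66.4, 63.2 and 65.5 CPM in unfed cells. The groups were well apart (log2 −0.29, SE 0.0437, edgeR adjusted p = 4.83e-05). Atg16l1, which brings the conjugate to the membrane, had 27.1, 29.6 and 27.9 CPM in fed 3 h cells, against 23.3, 21.8 and 24.3 CPM in unfed cells. No unfed library reached the fed ones (log2 0.29, SE 0.0557, edgeR adjusted p = 0.000476). Atg3, Atg7, Atg10 and Atg12 were not called (−0.0034, 0.12, −0.29 and −0.04). Atg7 was called higher with the size factors of DESeq2 in the edgeR fit (0.13) and without fed 24 h library 3 (0.12), and Atg10 lower without unfed library 3 (−0.36).

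Among the proteases, Atg4a (−0.23, edgeR adjusted p = 0.0178) and Atg4c (−0.25, edgeR adjusted p = 0.0315) were lower, both at low levels of 7.84 to 15.0 CPM. The call of Atg4a was lost without fed 3 h library 1 (−0.18) or 2 (−0.20) or unfed library 1 (−0.20) or 2 (−0.19), and its libraries overlapped between the groups. Atg4a also has a near-identical copy, Atg4a-ps, which had 17 counts in all. The call of Atg4c was lost without fed 3 h library 1 (−0.17) or 3 (−0.26) or any 1 of the unfed libraries (−0.26 to −0.24). Atg4b and Atg4d were not called (−0.09 and −0.05), while Kri1, which overlaps Atg4d, was higher (0.34, edgeR adjusted p = 0.0022).

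The ATG8 genes split as well. Gabarapl1 (chromosome 6, 129533160 to 129542346) had 65.3, 68.0 and 65.3 CPM in fed 3 h cells, against 51.0, 55.0 and 51.7 CPM in unfed cells. The fed libraries were all higher, in the largest rise of the 34 at this time (log2 0.33, SE 0.0466, edgeR adjusted p = 2.55e-05). Gabarap (chromosome 11, 69991143 to 69994951) had 297, 285 and 296 CPM in fed 3 h cells, against 401, 328 and 345 CPM in unfed cells. The fed libraries were all lower, and the unfed ones were spread widely (log2 −0.29, SE 0.0609, edgeR adjusted p = 0.000935). Map1lc3a, Map1lc3b and Gabarapl2 were not called (−0.12, −0.05 and −0.16), but Map1lc3a was lower without unfed library 3 (−0.19). Exons of Gabarapl1 overlap 1700101I11Rik on the opposite strand, which had 70 counts in all, against 25065 for Gabarapl1.

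Nbr1 had 92.2, 96.2 and 96.0 CPM in fed 3 h cells, against 127, 123 and 122 CPM in unfed cells. This was the largest fall of the 34 (log2 −0.39, SE 0.0399, edgeR adjusted p = 1.21e-06), with the groups far apart. Epg5 had 58.3, 60.8 and 55.7 CPM in fed 3 h cells, against 49.4, 50.3 and 50.2 CPM in unfed cells. The fed libraries were all higher (log2 0.22, SE 0.0509, edgeR adjusted p = 0.00193). Tecpr1 and Stx17 were not called (−0.12 and −0.05).

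**Figure D3:**
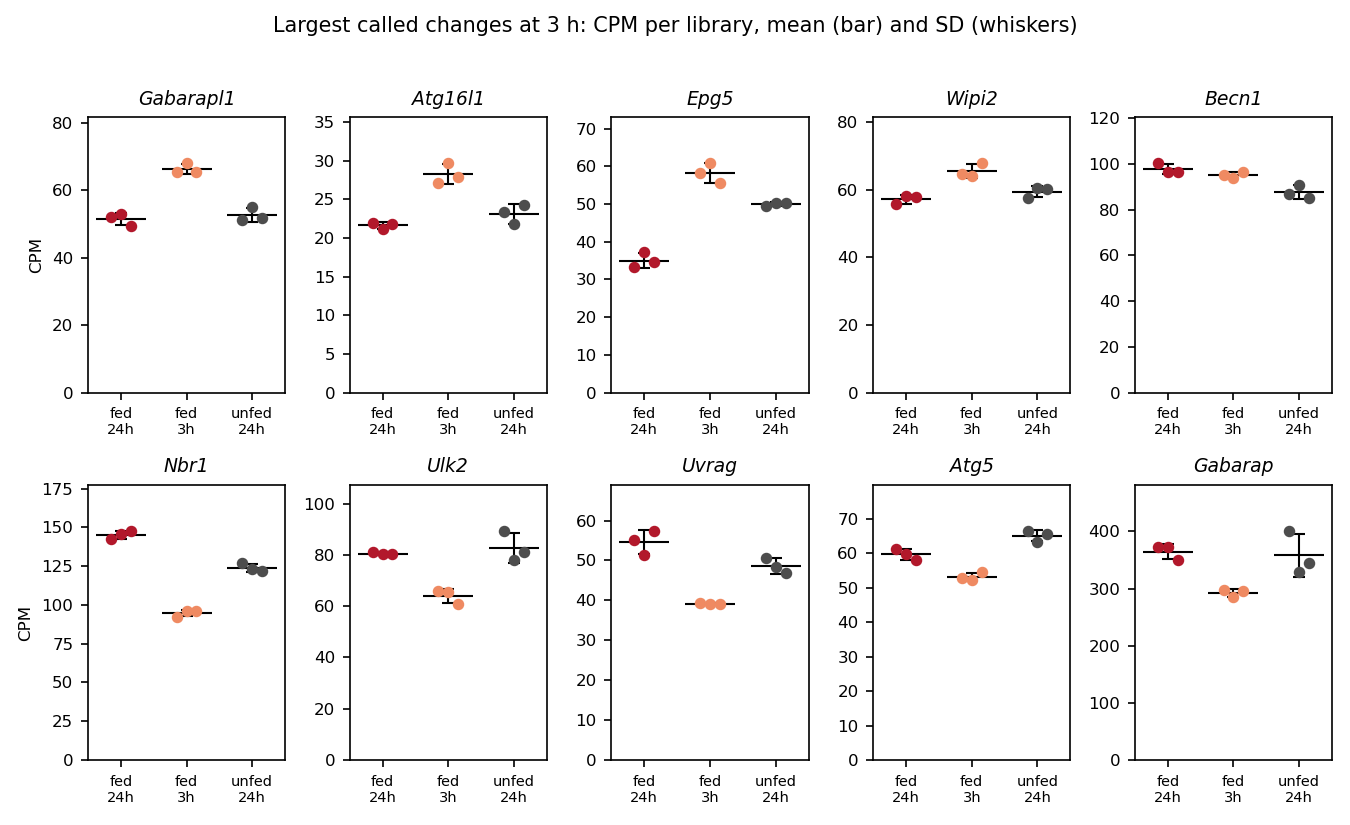
CPM in each library (points) of the 5 core genes with the largest called rises (upper row) and the 5 with the largest called falls (lower row) in fed 3 h against unfed 24 h cells, with fed 24 h cells at the left, the mean (bar) and the SD (whiskers). Nbr1 lies at 92.2 to 96.2 CPM in fed 3 h cells, below the 122 to 127 CPM of unfed cells.

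Between the times of feeding, most core genes differed. In fed 24 h cells 17 of 34 were higher than in fed 3 h cells and 8 were lower. These were 50% and 23.5% of the members, against 30.8% and 30.2% of all tested genes, and 73.5% were called either way, against 60.9%. The 24 h libraries lay above the 3 h ones in 18 members and below them in 8, where 33.3% and 32.6% of all genes did so (65.9% together). The median log2 fold change was 0.13, against −0.0017 over all genes. Both groups were fed and sorted, so this difference holds hours of feeding, hours in culture and which cells were sorted at each time together. It uses the same libraries as the comparisons with unfed cells. The mitochondrial share (1.78 to 2.22% in fed 24 h, against 1.12 to 1.58% in fed 3 h libraries) and the summed stromal and neutrophil markers were higher in every fed 24 h library than in any fed 3 h one, and their part in these differences was not tested.

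Nbr1, with 143 to 148 CPM in fed 24 h cells against 92.2 to 96.2 CPM in fed 3 h cells, had the largest rise (log2 0.62, SE 0.0397, edgeR adjusted p = 3.4e-09). Atg10 had 4.57, 4.43 and 5.09 CPM in fed 24 h cells, against 3.37, 2.72 and 3.16 CPM in fed 3 h cells. The 24 h libraries were all higher, at a low level and with a wide error (log2 0.60, SE 0.127, edgeR adjusted p = 0.000667). Tecpr1 had 21.4, 19.4 and 20.7 CPM in fed 24 h cells, against 14.8, 14.9 and 14.2 CPM in fed 3 h cells (log2 0.49, SE 0.0619, edgeR adjusted p = 5.17e-06). Uvrag, at 51.3 to 57.4 CPM in fed 24 h cells against 39.0 to 39.3 CPM in fed 3 h cells, was higher by 0.48 (SE 0.0508). Atg4c had 9.93, 12.1 and 12.0 CPM in fed 24 h cells, against 7.84, 9.68 and 8.85 CPM in fed 3 h cells (log2 0.37, SE 0.0903, edgeR adjusted p = 0.0022). In each of these 5 genes the libraries of the 2 times did not overlap. The other 12 rises ran from 0.11 (Atg9a) to 0.33 (Ulk2), and took in Atg13, Atg101, Atg2a, Wipi1, Atg3, Atg5, Atg4a, Map1lc3a, Map1lc3b and Gabarap.

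The largest fall was that of Epg5, at 33.2 to 37.3 CPM in fed 24 h cells against 55.7 to 60.8 CPM in fed 3 h cells (log2 −0.73, SE 0.0515, edgeR adjusted p = 8.22e-09). Atg16l1 had 21.9, 21.2 and 21.8 CPM in fed 24 h cells, against 27.1, 29.6 and 27.9 CPM in fed 3 h cells (log2 −0.38, SE 0.0555, edgeR adjusted p = 1.98e-05). Gabarapl1 had 51.9, 52.8 and 49.4 CPM in fed 24 h cells, against 65.3, 68.0 and 65.3 CPM in fed 3 h cells (log2 −0.37, SE 0.0464, edgeR adjusted p = 5.21e-06). In all 3 the 24 h libraries were all below the 3 h ones. Atg4d had 14.9, 15.6 and 14.0 CPM in fed 24 h cells, against 17.7, 16.6 and 19.4 CPM in fed 3 h cells (log2 −0.27, SE 0.0698, edgeR adjusted p = 0.00322). Atg2b had 41.6, 43.4 and 41.9 CPM in fed 24 h cells, against 47.9, 50.6 and 49.4 CPM in fed 3 h cells (log2 −0.22, SE 0.0586, edgeR adjusted p = 0.00397). These groups did not overlap either. Kri1, whose exons overlap those of Atg4d, was also lower in this comparison (−0.24, edgeR adjusted p = 0.0147). The other falls were those of Wipi2 (−0.20), Rb1cc1 (−0.16) and Atg7 (−0.12).

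The smallest of these calls were the least stable. The fall of Atg7 was lost under 11 of 16 alternatives (−0.14 to −0.08, adjusted p from 0.0502 to 0.21 over the edgeR and DESeq2 fits), among them the fits without fed 24 h library 1 or 3, fed 3 h library 2 or 3 or unfed library 2 or 3. The rise of Atg9a was lost under 7 (0.11 to 0.12, adjusted p from 0.0523 to 0.105 over the edgeR and DESeq2 fits), among them those without fed 24 h library 1 or 2 or any 1 fed 3 h library. The fall of Rb1cc1 was lost with the stricter filter (−0.14) and without fed 24 h library 1 (−0.14) or 2 (−0.13) or fed 3 h library 3 (−0.13). The rise of Atg2a was lost without fed 24 h library 2 (0.11) and that of Atg3 without fed 3 h library 2 (0.13). Ulk1 (0.09), Ambra1 (0.09) and Gabarapl2 (0.15) were not called. Ulk1 (0.11) and Ambra1 (0.12) were called with the stricter filter, Ambra1 also without fed 3 h library 1 (0.13) and Gabarapl2 without fed 24 h library 1 (0.22).

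Set side by side, the comparisons with unfed cells, which share the unfed libraries, had opposite signs for several of the called genes. Nbr1 was at 0.23 at 24 h and −0.39 at 3 h, Uvrag at 0.17 at 24 h and −0.31 at 3 h, and Wipi1 at 0.18 at 24 h and −0.14 at 3 h. Epg5 went the other way, at −0.51 at 24 h and 0.22 at 3 h. Becn1 was higher at 24 h (0.16) and at 3 h (0.12), and Atg5 lower at 24 h (−0.13) and at 3 h (−0.29). The values at 3 h are against unfed cells of 24 h. The comparison of fed 24 h with fed 3 h cells called Nbr1, Uvrag, Wipi1, Epg5 and Atg5. It did not call Becn1 (0.04, edgeR adjusted p = 0.432). Its log2 fold changes are the differences of those against unfed cells. Genes picked for opposite signs there differ here by construction, so these calls are not a separate test.

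**Figure D4:**
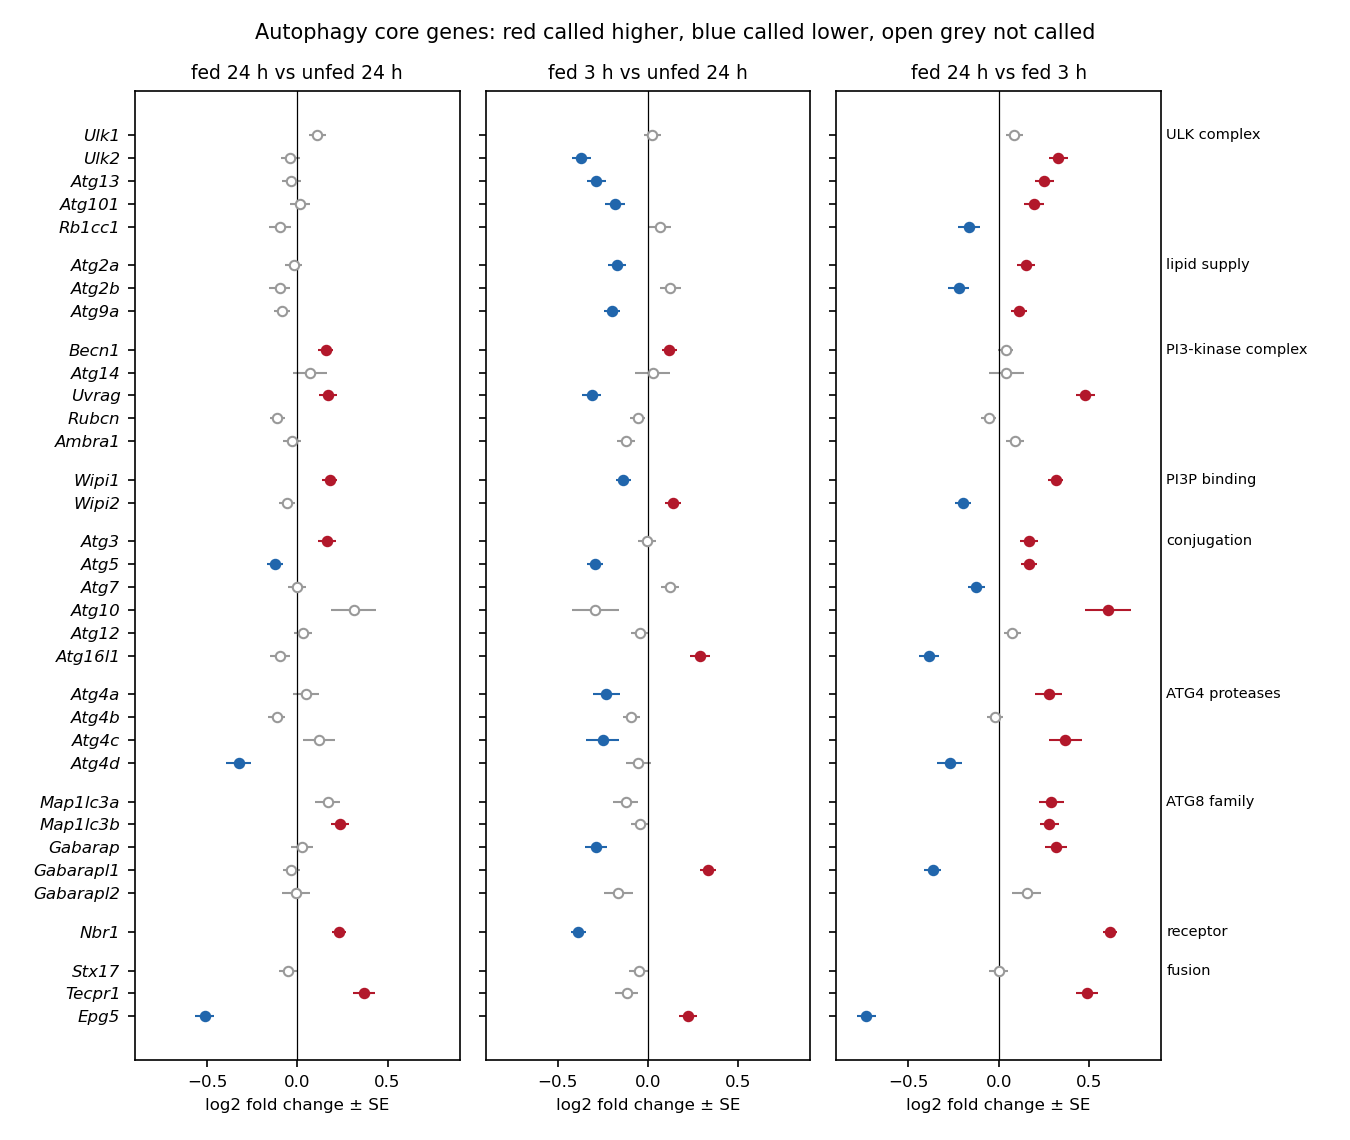
Log2 fold change ± SE of the 34 core genes in fed 24 h against unfed 24 h, fed 3 h against unfed 24 h and fed 24 h against fed 3 h cells, grouped by step. Filled points were called by edgeR (red higher, blue lower) and open points were not, with 7 higher and 3 lower, 5 higher and 12 lower, and 17 higher and 8 lower from left to right.

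Within the families, the shares of several paralogues in fed 3 h cells lay outside those of the other groups. Shares are of the family's summed level per length, and they are descriptions without a test. Of the ATG8 family, Gabarap made up 68.1 ± 0.164% in fed 24 h, 64.8 ± 0.891% in fed 3 h and 69.6 ± 1.08% in unfed libraries (SD, n = 3 each). Gabarapl1 made up 7.12 ± 0.0457% in fed 24 h, 10.9 ± 0.374% in fed 3 h and 7.64 ± 0.921% in unfed libraries, and the 3 h libraries, at 10.6 to 11.3%, were above all others. Map1lc3b made up 10.9 ± 0.176% in fed 24 h, 10.7 ± 0.182% in fed 3 h and 9.7 ± 0.261% in unfed libraries, with the fed libraries of either time above all unfed ones. At 3 h against unfed cells its own level was not called (log2 −0.05), while Gabarap was lower (−0.29). The summed level of the family was 396 ± 14.9 CPM per kilobase in fed 24 h, 334 ± 3.87 in fed 3 h and 381 ± 35.1 in unfed libraries. Wipi1 made up 62.9 ± 0.957% of the WIPI pair in fed 24 h, 54.3 ± 0.925% in fed 3 h and 59.1 ± 1.39% in unfed libraries, and these 3 groups did not overlap. Ulk1 made up 33.1 ± 0.797% of the ULK pair in fed 24 h, 37.0 ± 1.15% in fed 3 h and 30.9 ± 1.74% in unfed libraries, with the 3 h libraries highest. Here too Ulk1 itself was not called at 3 h against unfed cells (log2 0.02), while Ulk2 was lower (−0.37). Of the ATG4 family, Atg4b made up 51.2 ± 0.856% in fed 24 h, 54.7 ± 1.18% in fed 3 h and 53.0 ± 0.888% in unfed libraries, and Atg4d 9.53 ± 0.358% in fed 24 h, 12.1 ± 0.619% in fed 3 h and 11.4 ± 0.456% in unfed libraries. For both proteases the fed 3 h libraries overlapped the unfed ones. Of the ATG2 pair, Atg2a made up 61.8 ± 0.959% in fed 24 h and 60.6 ± 2.88% in unfed libraries. Its share was 55.6 ± 0.362% in fed 3 h libraries, which were the lowest. The sizes of these shares depend on the lengths used. With all annotated exons Wipi1 made up 80.9% of its pair in fed 24 h, 74.9% in fed 3 h and 78.3% in unfed cells, Map1lc3b 5.08% of the ATG8 family in fed 24 h, 4.91% in fed 3 h and 4.48% in unfed cells, and Atg4b 38.1% of the ATG4 family in fed 24 h, 41.6% in fed 3 h and 39.9% in unfed cells.

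**Figure D5:**
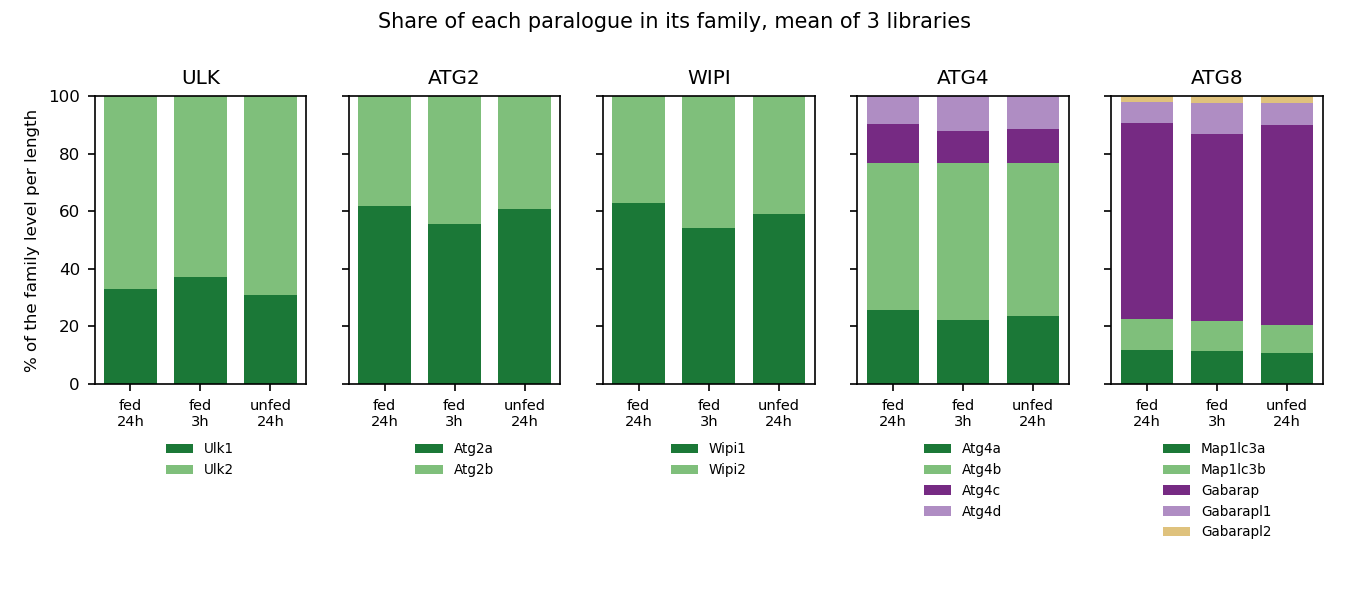
Share of each paralogue in the summed level per length of its family (percent, mean of 3 libraries) in fed 24 h, fed 3 h and unfed 24 h cells. Gabarap takes 64.8 to 69.6% of the ATG8 family, and the share of Gabarapl1 is 10.9% in fed 3 h cells against 7.12% in fed 24 h and 7.64% in unfed cells.

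Genes that act with these members were counted as further lists, to be read beside the shares of all tested genes given above. Here "at 24 h" and "at 3 h" stand for the comparisons of fed cells of that time with unfed cells. A further 11 core genes had 3 higher and 2 lower at 24 h against unfed cells, 1 higher and 5 lower at 3 h against unfed cells, and 6 higher and 1 lower at 24 h against 3 h. Zfyve1, which marks the site where autophagosomes form, had 31.2 ± 1.98 CPM in fed 24 h and 25.1 ± 2.65 CPM in unfed libraries (log2 0.32, SD, n = 3 each), and Pik3r4, a subunit shared by the beclin 1 complexes, had 26.2 ± 0.255 CPM in fed 3 h and 32.2 ± 1.75 CPM in unfed libraries (−0.30). Of 19 receptors of selective autophagy, 5 were higher and 2 lower at 24 h, and 5 and 6 at 3 h. Calcoco1 (0.51), Optn (0.44) and the mitophagy receptor Bnip3 (0.29) had the largest rises at 24 h, and Stbd1, a receptor for glycogen, the largest fall (−0.36). At 3 h the endoplasmic reticulum receptor Retreg1 rose by 0.78 and Sqstm1, which encodes p62, by 0.39 with 528 ± 6.16 CPM in fed 3 h and 403 ± 6.07 CPM in unfed libraries, whereas Bnip3 fell by 0.79. Sqstm1 was not called at 24 h (−0.01, edgeR adjusted p = 0.851), and its relative Nbr1, described above, had 0.23 at 24 h and −0.39 at 3 h. Of 15 SNARE, tethering and late endosome genes, 1 was higher and 3 lower at 24 h, with Lamp1 (0.15), Snap29, the partner of Stx17 (−0.25), and the tether subunits Vps18 (−0.23) and Vps33a (−0.15). At 3 h 4 were higher and 2 lower, with Rab7, the GTPase of late endosomes, at 350 ± 13.5 CPM in fed 3 h and 275 ± 7.43 CPM in unfed libraries (0.35).

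More regulators of the pathway were called at 3 h than at 24 h, as was so among all genes. Of 10 tested transcriptional regulators, 1 was higher and 3 lower at 24 h, and 4 and 3 at 3 h. At 3 h Mitf (0.62) and Tfe3 (0.28), factors that bind the CACGTG core, were higher and the forkhead factors Foxo3 (−0.26) and Foxo4 (−0.39) and the repressor Zkscan3 (−0.52) lower. Another forkhead factor, Foxo1, had a higher mean in fed 3 h (63.0 ± 1.51 CPM) than in unfed libraries (55.2 ± 2.44 CPM, SD, n = 3 each). Tfeb was not called at either time (0.12 at 24 h and 0.01 at 3 h). Of 35 tested genes of mTORC1 and AMPK signalling, which inhibit and activate the ULK complex, 3 were higher and 3 lower at 24 h, and 9 and 12 at 3 h. At 3 h Fnip2 (1.02) and Flcn (0.73), whose proteins act together on the lysosome, were higher, and the mTORC1 inhibitors Sesn3 (−0.83), Ddit4 (−0.81) and Sesn1 (−0.71) lower. At 24 h Lamtor2 (0.35), Sesn3 (0.23) and Lamtor4 (0.20) were higher. The kinase subunit Prkaa1 of AMPK (−0.21), Mlst8 (−0.16) and Rragc (−0.13) were lower at that time.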

How the data were processed

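The authors deposited raw counts of reads for each mouse gene symbol in 9 ST2 libraries, neither normalized nor pooled. The submitters' processing notes name STAR 2.7.0f, featureCounts of Subread 1.6.4, MultiQC 1.7 and the builds GRCm38.p6 and GRCh38.p13. How the human build was used, the annotation, the strand setting and the handling of reads with several matches are, all 4, not given in the sources used here. A stranded kit is named in the labels' protocols and another kit in the series text, so whether strand was kept is unresolved, and counts of overlapping genes or near-identical copies are uncertain.

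The main test was edgeR's quasi-likelihood test (edgeR 4.0.16, R 4.3.3), with TMM factors, filterByExpr, all 9 libraries and group as the only term, adjusted by Benjamini-Hochberg over 13568 genes. Depth was 44442664 to 55971275 counts per library. Replicates differed by more than counting noise (chi-square per degree of freedom from 5.2 to 15.4), and PCR copies could not be removed. Levels per length used the APPRIS principal transcript of GENCODE M21 (GRCm38), the source of the coordinates.

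The members and other lists were chosen with earlier results of these data known, so no list was tested as a whole. Any of the 34 members could be named, with values per library for those called at 24 h and, in the other comparisons, for the 5 largest called rises and falls. Of other lists, up to 3 called genes per direction with at least 5 CPM in a group could be named. Tfeb, Sqstm1 at 24 h and Foxo1 at 3 h were added after their values had been seen. The result of 1 further list is not reported here. Alternatives were size factors from DESeq2 1.42.0, its Wald test, limma-voom (limma 3.58.1), no filter, a stricter filter (at least 5 CPM in 3 libraries), the 6 libraries compared alone, the replicate number in the model, and each library left out, 16 settings in all. The fitting script was tested on simulated counts.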

Additional observations from a re-analysis of the deposited data

How the results depend on the processing

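Under the 7 settings that left no library out, 7 or 8 members were higher and 2 or 3 lower at 24 h against unfed cells, 4 to 6 higher and 12 or 13 lower at 3 h against unfed cells, and 16 to 18 higher and 6 to 8 lower at 24 h against 3 h. With a library left out, 5 to 9 members were higher and 2 to 4 lower at 24 h against unfed cells, 3 to 6 higher and 9 to 14 lower at 3 h against unfed cells, and 15 to 17 higher and 6 to 8 lower at 24 h against 3 h. The count of 3 was reached without fed 3 h library 3. The medians ran from −0.0309 to 0.0225, from −0.128 to −0.0716 and from 0.108 to 0.145 in the same order of comparisons, and the first was also above 0 with the stricter filter. Over members and settings, 1507 of 1629 values kept sign and call, 56 lost and 22 gained a call, and 44 changed sign, none of them a called value. The cause of these shifts was not tested.

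Values that changed sign with no library left out were those of Atg7 at 24 h against unfed cells with size factors of DESeq2 (0.00213), its Wald test (0.00214), no filter (0.00181), the stricter filter (0.0141) and the 6 libraries compared (0.000589), and of Gabarapl2 with the stricter filter (0.00551). At 3 h against unfed cells Atg3 had 0.00261 with DESeq2 size factors and 0.00266 with the Wald test. At 24 h against 3 h Stx17 had 0.00144 with limma-voom, 0.005 with no filter, 0.026 with the stricter filter and 0.00199 with the 6 libraries compared, and Atg4b had 0.00595 with the stricter filter. With single libraries left out, the ranges at 24 h against unfed cells were −0.0803 to 0.0214 for Ulk2, −0.0576 to 0.0164 for Atg13, −0.03 to 0.0654 for Atg101, −0.0616 to 0.0236 for Atg2a, −0.0518 to 0.00395 for Ambra1, −0.0264 to 0.0443 for Atg7, −0.0135 to 0.088 for Atg4a, −0.0302 to 0.118 for Gabarap, −0.0544 to 0.00186 for Gabarapl1 and −0.0577 to 0.057 for Gabarapl2. At 3 h against unfed cells they were −0.0206 to 0.0836 for Atg14, −0.0264 to 0.0399 for Atg3 and −0.0869 to 0.00731 for Map1lc3b, and at 24 h against 3 h −0.0181 to 0.134 for Atg14, −0.0583 to 0.00857 for Atg4b and −0.0367 to 0.0361 for Stx17.

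The block ended the calls of Atg5 at 24 h against unfed cells and of Atg7 at 24 h against 3 h. Deviations of libraries with the same replicate number had correlations from −0.163 to 0.0578 over 9 pairs. Those with different numbers had correlations from −0.0971 to 0.104. No pairing by number was seen, but these values cannot settle whether the number pairs libraries, which the labels do not say. With the replicate block, 7 members were higher and 2 lower at 24 h against unfed cells, 5 and 12 at 3 h against unfed cells and 17 and 7 at 24 h against 3 h. Fits without a library keep 2 libraries in a group, whose spread is pooled with the others. Depth limits the low members most, Atg10 having as few as 125 counts in a library.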
